A study of Gallus gallus with 2 samples.

Results

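The microRNA precursor genes that were detected in 6C2 cells, a chicken erythroleukemia line, are described here, leaving out the 2 genomic clusters of the miR-17-92 type. The members were chosen by measured values: a gene model named as a chicken microRNA or let-7 entered when its RPKM (reads per kilobase of gene model, scaled to the reads of the library) was at least 1 in both samples, and models starting within the windows of the miR-17-92 type clusters on chromosomes 1 and 4 were left out. This rule took 104 of 440 microRNA models outside the clusters, or 23.6%. Because RPKM selected them, the levels below are a description and carry no test. The same level was reached by 52.6% of all 16464 gene models analysed and by 43.6% of the 1243 models under 200 bp, microRNA models included. Models with no symbol and 0 reads, 1470 of 17934, had been left out, whereas named models with 0 reads stayed in. The share over the whole table would thus be below 52.6%. Of the members, 88 were models under 200 bp, the size of a precursor hairpin, with lengths of 60 to 128 bp and a median of 88 bp. The other 16 were longer models that carry a microRNA name, with listed lengths of 500 to 9244 bp, and they are described separately. RPKM uses the listed length, which for most of these 16 is shorter than the stretch between start and end. Of the microRNA models under 200 bp, 20.9% were detected, and of the 18 of 200 bp or more, 88.9%.

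Total RNA depleted of ribosomal RNA was sequenced from 6C2 cells in 2 samples, here replicate 1 and replicate 2. The line is described as cycling cells held at the stage of the erythroid colony-forming unit, a progenitor of red blood cells. Both samples belong to the same group with no treatment or second group, so nothing is compared between conditions, and whether they came from separate cultures is not given. The table held 40064443 reads in replicate 1 and 30668939 in replicate 2, so that 1 read on an 88 bp model was worth 0.286 and 0.374 RPKM. Of 5 measured erythroid markers 4 were detected, beside 52.6% of all gene models analysed. Among them were the transferrin receptor gene TFRC at 263.61 and 297.6 RPKM and the transcription factor gene GFI1B at 62.08 and 74.17. KIT, a growth factor receptor of progenitors, stood at 0.3 and 0.41. The others on the list of 12, ALAS2, EPOR, GATA1, KLF1, NFE2, SLC4A1 and TAL1, were not found by name. Of 7 lymphoid and monocytic markers, only CD3E passed, at 2.42 and 2.91 RPKM. In bulk RNA, fewer cells of a type and less RNA per cell cannot be told apart.

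MicroRNAs are short RNAs that guide Argonaute proteins to messenger RNAs and lower their stability or translation. A primary transcript, often a long noncoding RNA or the intron of a protein gene, is cut in the nucleus by DROSHA to a hairpin, exported by XPO5 and cut again by DICER1 to the mature RNA. Members of a family share the seed, the stretch near the 5′ end that pairs with targets, and several precursors can come from the same primary transcript. A read on a precursor model of total RNA can come from the primary transcript, the hairpin, the mature RNA or a host gene, and these cannot be told apart here. The sources used here do not say how reads matching several near-identical precursors were assigned, or whether counting used strand, so levels of precursors with close copies are uncertain. Of 19 measured genes of this pathway 18 were detected, beside 52.6% of all gene models analysed. Among them were DROSHA (listed as RNASEN) at 8.29 and 9.74 RPKM and DICER1 at 8.35 and 9.82. The others on the list of 25, DGCR8, TARBP2, PRKRA, KHSRP, SND1 and SRRT, were not found by name. LIN28B, a protein that blocks let-7 maturation, stood at 8.82 and 11.07 RPKM, and LIN28A (listed as LIN28), its relative, at 0.09 and 0.11.

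The levels of the 88 precursor-sized members fell off steeply from the top. The median of their mean RPKM was 12.6, and the middle of the distribution lay between 3.87 at the lower quartile and 27.1 at the upper quartile. mir-155 was the only precursor with a mean of at least 1000 RPKM, 8 had at least 100, 46 had at least 10, and 28 had under 5. The 446 other detected models under 200 bp, which carry no microRNA name, had a median of 273 RPKM, and all detected gene models had a median of 13.4. The precursor-sized members took 0.0312% ± 0.0043 (SD, n = 2) of all reads, or 13711 and 8629 reads. The 5 with most reads, mir-155, mir-103-2, let-7f, let-7g and mir-21, held 56.1% ± 1.80 (SD, n = 2) of those. Depth was low for many of them: 16 had at least 100 reads in each sample, and 24 had under 10 reads in at least 1 sample.

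**Figure D1:**
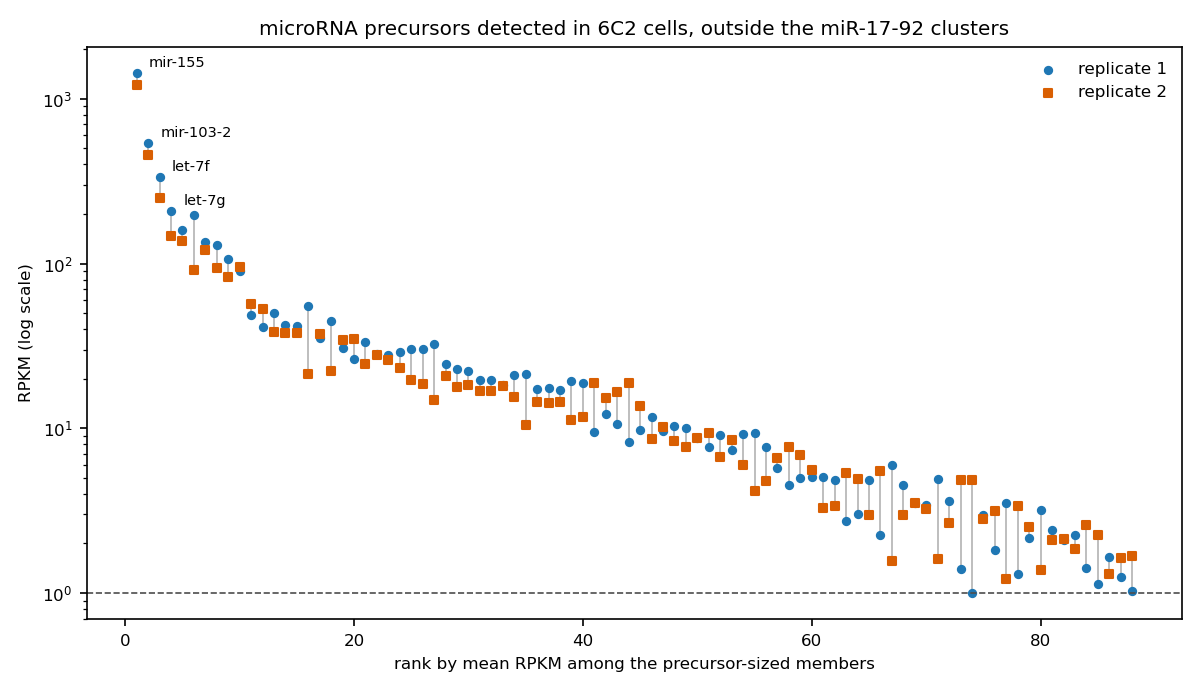
RPKM (log scale) of the 88 precursor-sized members against their rank by mean RPKM. Circles are replicate 1, squares are replicate 2, grey lines join the samples, and the dashed line is the detection level of 1. mir-155 stands alone above 1000, and the distance between the samples widens toward the low ranks.

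How a microRNA is numbered divided the precursors. Among models under 200 bp, 65 of 142 with a number under 1000 or a let-7 name were detected, or 45.8%, with a median of 18.2 RPKM. Of the 280 with a number of 1000 or more, 23 were detected, or 8.21%, with a median of 3.14 RPKM. The highest of these, mir-1306, had a mean of 53.0, and 4 of the 23 reached a mean of 10, against 42 of the 65 with lower numbers. Numbers are given in order of discovery, and the low numbers hold most of the microRNA families shared among vertebrates.

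mir-155, which acts in activated lymphoid and myeloid cells, had the highest level of all microRNA models. It lies on chromosome 1 from 105930213 to 105930275 on the plus strand, in coordinates as deposited (build not given in the sources used here). It held 3531 reads in replicate 1 and 2302 in replicate 2, or 1434.14 and 1221.14 RPKM, with a mean of 1328 ± 151 (SD, n = 2). It was the higher in replicate 1, by 1.17 times, and alone took 26.2% ± 0.654 (SD, n = 2) of the precursor-sized reads. In chickens its primary transcript is known as BIC, first found as a common integration site of avian leukosis virus in B-cell lymphomas, and RefSeq (assembly GRCg7b) places the MIR155 hairpin inside the long noncoding gene MIR155HG. No model of the deposited table lay around it. The nearest model was MRPL39, a mitochondrial ribosomal protein gene on the opposite strand 6882 bp away, at 63.97 and 50.19 RPKM.

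The miR-103/miR-107 family, which holds the second highest precursor-sized member, took 16.3% ± 0.0076 (SD, n = 2) of the precursor-sized reads. Its precursors lie in vertebrate genomes within the genes of pantothenate kinases, the enzymes that start coenzyme A synthesis. mir-103-2, on chromosome 4 from 91906889 to 91906971 on the minus strand, held 1750 and 1133 reads, or 537.41 and 454.43 RPKM. mir-107, on chromosome 6, held 413 and 229 reads, or 130 and 94.14 RPKM. mir-103-1, on chromosome 13, held 68 and 43 reads, or 22.24 and 18.37 RPKM. All 3 were higher in replicate 1, and their order was the same in both samples without overlap. mir-103-2 stood 24.2 and 24.7 times above mir-103-1 and 4.13 and 4.83 times above mir-107.

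The genes around the miR-103/miR-107 precursors did not follow that order. PANK3, around mir-103-1, the lowest precursor, had the highest level of the 3 kinase genes, 72.61 and 90.29 RPKM, and stood 3.26 and 4.92 times above its precursor. PANK1, around mir-107, had 4.72 and 6.46 RPKM, so that the precursor stood 27.5 and 14.6 times above it. The mir-103-2 model lies 432 bp outside the PANK2 model, which is on the same strand, although RefSeq places the hairpin within PANK2. PANK2 had 6.65 and 7.06 RPKM, 80.8 and 64.4 times less than the precursor. The RPKM of each kinase gene is per its listed length, 1802 bp for PANK1, 932 bp for PANK2 and 1830 bp for PANK3. Whether mir-107 and mir-103-1 lie in the counted parts was not determined, so the ratios may set unlike measures side by side. The deposited mir-103-2 model also lies within a model of ADRA1D, an adrenergic receptor gene, on the opposite strand.

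Every measured let-7 precursor was detected, 11 of 11, beside 45.8% of all models under 200 bp with a number under 1000 or a let-7 name. let-7 microRNAs are known for rising as cells differentiate and for lowering RAS, MYC and HMGA2. They held 2597 and 1478 reads together, 18.0% ± 1.28 (SD, n = 2) of the precursor-sized reads, and the highest locus stood 113 and 88.9 times above the lowest. let-7f, on chromosome 12, held 1146 and 658 reads, or 335.56 and 251.64 RPKM, which was 44.1% and 44.5% of the family's reads. let-7g, also on chromosome 12, held 679 and 368 reads, or 208.52 and 147.6 RPKM. let-7k, on chromosome 26, held 349 and 207 reads, or 107.18 and 83.02 RPKM. These 3 loci stood apart from the other 8 in both samples. let-7j followed with 29.17 and 23.26 RPKM, let-7a-1 with 20.94 and 15.52, and let-7i with 18.89 and 11.75. let-7a-2 stood at 18.44 and 18.07 RPKM and let-7a-3 at 17.12 and 14.47, within the spread of let-7a-1 and let-7i. By their names, the 3 let-7a loci encode the same mature RNA from chromosomes 12, 24 and 1. RefSeq, however, lists let-7a-1 under the symbol MIRLET7F2 and let-7k under MIRLET7A1, and sequences were not compared here. At the low end were let-7b at 11.69 and 8.61 RPKM, let-7d at 9.38 and 4.19, and let-7c with 11 and 8 reads at 2.98 and 2.83.

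Each of the 11 let-7 loci was higher in replicate 1 than in replicate 2. The same was true of 62.5% of the 88 precursor-sized members, 60.3% of the 542 detected models under 200 bp and 38.2% of all detected models. With the samples scaled to equal median, a log2 shift of 0.10, these shares were 69.3%, 68.1% and 54.4%. The precursors as a whole thus lay near the short models, which include them, under either scaling. All precursors are measured in the same 2 libraries, and the 11 loci are not replicates of each other. The exact binomial 95% interval of the ratio, which covers counting error only, lay above 1 for let-7f, let-7g, let-7k, let-7i and let-7d. It included 1 for the other let-7 loci.

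**Figure D2:**
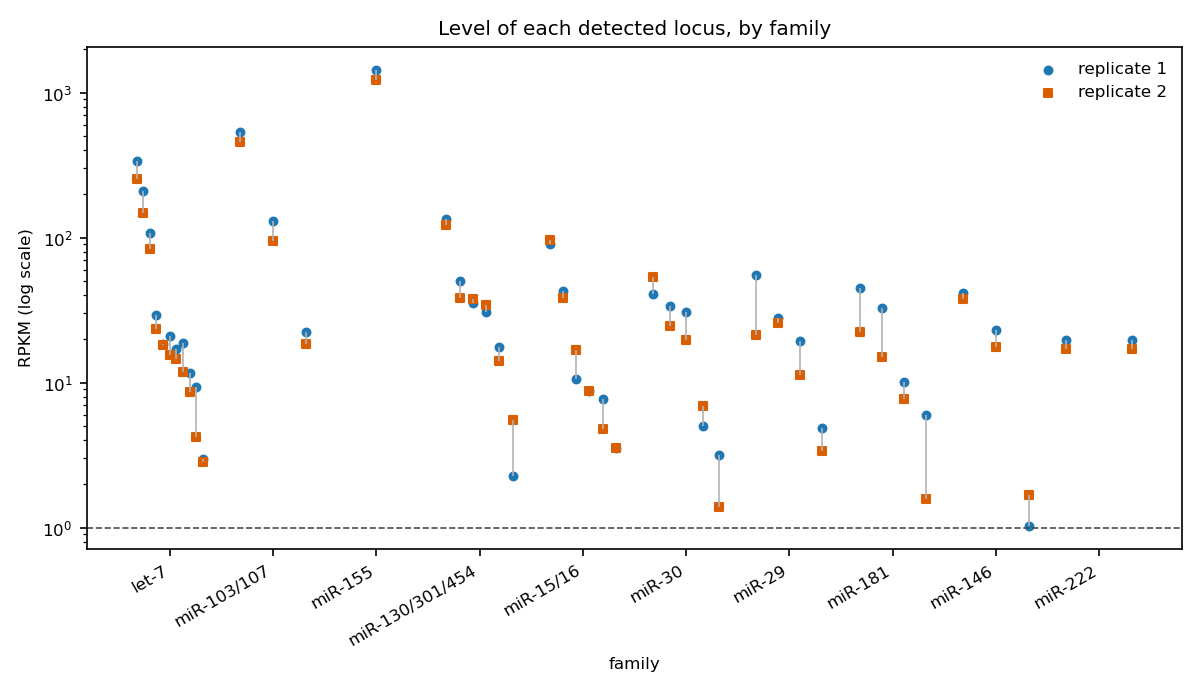
RPKM (log scale) of each detected precursor-sized locus, grouped by family and ordered from high to low within it. Circles are replicate 1, squares are replicate 2, grey lines join the samples, and the dashed line is the detection level of 1. In each family with 3 or more loci, the highest stands at least 6 times above the lowest in both samples.

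The miR-130/miR-301/miR-454 family, whose members share a seed, was detected at all 6 loci, beside 45.8% of the models with low numbers. It held 7.20% ± 0.688 (SD, n = 2) of the precursor-sized reads. On chromosome 15, mir-130b held 408 and 281 reads, or 135.19 and 121.6 RPKM. mir-130a stood at 50.06 and 38.5, mir-301a at 35.58 and 37.54, and mir-454 at 30.64 and 34.53 RPKM. In replicate 2 these 3 lay close together. mir-130b thus stood clear of its neighbours, by 2.70 and 3.16 times over mir-130a. On chromosome 19, mir-130c had 17.6 and 14.15 RPKM and mir-301b, with 8 and 15 reads, had 2.26 and 5.54.

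The miR-15/miR-16 family lowers BCL2 and cyclins and is lost in many human lymphocytic leukemias. It was also detected at all 6 loci, beside the same 45.8%. mir-16c on chromosome 4 held 251 and 204 reads, or 90.29 and 95.85 RPKM, and was the highest. mir-15b on chromosome 9 followed with 152 and 104 reads, or 42.53 and 38.01 RPKM. The other 4 lay below these in both samples, from mir-16-1 at 10.62 and 16.64 RPKM to mir-16-2 at 3.52 and 3.54. The clustered partners of mir-16c and mir-15b, mir-15c and mir-16-2, were thus 10 times lower or more, whereas mir-15a and mir-16-1, the partners on chromosome 1, were both low, with mir-15a at 7.68 and 4.81.

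The miR-30, miR-29 and miR-181 families were of intermediate level. Of miR-30, 5 of 6 loci were detected, beside 45.8% of the models with low numbers. They were led by mir-30c-1 at 40.92 and 53.07 RPKM, mir-30e at 30.48 and 19.73, and mir-30d at 33.58 and 24.54. By contrast mir-30b stood at 4.98 and 6.88, mir-30c-2 at 3.19 and 1.39, and mir-30a had 0 reads in both samples. Of miR-29, known for lowering collagens and DNA methyltransferases, mir-29a held 192 and 57 reads, or 54.94 and 21.3 RPKM. mir-29b-1 stood at 27.7 and 25.9, so the order of these neighbours differed between the samples. mir-29b-2 and mir-29c, on chromosome 26, had 19.44 and 11.24 RPKM and 4.86 and 3.36 RPKM. Of miR-181, known from lymphocyte development, mir-181a-2 held 160 and 61 reads, or 44.77 and 22.29 RPKM, and mir-181b-1 held 114 and 40 reads, or 32.62 and 14.95 RPKM. The remaining loci, mir-181a-1 at 10.02 and 7.66 and mir-181b-2 at 6 and 1.57, were lower in both samples. All 4 miR-29 loci and all 4 miR-181 loci were higher in replicate 1, against 3 of 5 in miR-30, 3 of 6 in miR-130/miR-301/miR-454 and 2 of 6 in miR-15/miR-16. The same was true of 62.5% of the 88 precursor-sized members. The miR-29 and miR-181 loci lie in pairs within genomic clusters and are not replicates of each other.

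The miR-146 family, which dampens signalling through TRAF6 and IRAK1, differed widely between loci. mir-146c on chromosome 4 had 41.71 and 37.77 RPKM, mir-146b on chromosome 6 had 23 and 17.71, and mir-146a, the best studied in immune cells, had 1.03 and 1.68 from 4 and 5 reads. mir-222a, which lowers KIT in human erythroid progenitors, is listed at 2 places on chromosome 1 whose starts are 2395 bp apart. Both rows held the same 76 and 50 reads, or 19.73 and 16.95 RPKM. RefSeq lists 1 MIR222 gene there, so whether these are separate loci or the same reads counted at each cannot be told apart. A model without a symbol 406 bp from the nearer row, ENSGALG00000018247, had 66.55 and 52.69 RPKM.

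Among precursors outside these families, mir-24 and mir-21 were the highest. mir-24, on the Z chromosome, held 424 and 280 reads, or 159.36 and 137.45 RPKM. mir-21, an abundant microRNA in many tumours, lies on chromosome 19 from 7322072 to 7322168, 976 bp beyond the end of VMP1, the gene that its primary transcript overlaps in mammals. It held 755 and 267 reads, or 198.04 and 91.47 RPKM, and was 2.17 times higher in replicate 1, with an exact binomial 95% interval of 1.88 to 2.50 that covers counting error only. VMP1 itself had 79.32 and 77.49 RPKM, so no such difference was seen there. mir-126, known from endothelial cells and blood progenitors, was at 28.22 and 27.74 RPKM, and mir-140, known from cartilage, at 30.27 and 18.54. mir-26a, a microRNA of many tissues, stood at 24.52 and 20.77. mir-142, a microRNA of all blood lineages, held 33 and 50 reads, or 9.55 and 18.9 RPKM, and was higher in replicate 2.

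For scale, the 9 models of the miR-17-92 clusters ranged from 0.94 to 277 RPKM in replicate 1 and from 1.64 to 240.9 in replicate 2. mir-155, mir-103-2 and let-7f exceeded all 9 in both samples, and no other precursor-sized member did.

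Members within 10 kb of each other formed 18 genomic clusters with 40 members, each on 1 strand. In 17 of them at least 2 members were precursor-sized. The remaining cluster holds the mir-1306 precursor and the long mir-1306 model around it. The 17 include the 2 mir-222a rows of identical reads, with a ratio of 1. The ratio of the highest to the lowest precursor-sized member had a median of 3.73 over the 17 clusters, and in 10 the difference was at least 2-fold in both samples. By mean RPKM, the ratio passed 10 in 3 clusters. In the cluster of let-7a-1, let-7f and let-7d on chromosome 12, let-7f stood 16.02 and 16.21 times above let-7a-1, which lies 327 bp away, and 35.8 and 60.1 times above let-7d, 942 bp away. mir-15b stood 12.1 and 10.7 times above mir-16-2, and mir-16c stood 10.3 and 10.9 times above mir-15c. These ratios were close in the 2 samples except for let-7d, which rests on 38 and 13 reads.

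By mean RPKM, other clusters were less uneven. In replicate 2 alone, mir-181a-2 also passed 10 times its neighbour mir-181b-2, which had 4 reads there. let-7k stood 3.67 and 3.57 times above let-7j, mir-181a-2 stood 7.46 and 14.2 times above mir-181b-2, mir-181b-1 stood 3.26 and 1.95 times above mir-181a-1, and mir-30d stood 6.74 and 3.57 times above mir-30b. mir-130c stood 7.79 and 2.55 times above mir-301b, and let-7a-3 stood 1.46 and 1.68 times above let-7b. mir-29b-2 stood 4 and 3.35 times above mir-29c, and mir-30c-1 stood 1.34 and 2.69 times above mir-30e. The highest member was not the same in both samples in 2 clusters: mir-29a with mir-29b-1, and mir-193b with mir-365-1, which had 21.5 and 10.43 against 12.3 and 15.3 RPKM. In the cluster of the Z chromosome, mir-24 stood 6.04 and 3.95 times above mir-23b, 683 bp away, which had 26.37 and 34.82 RPKM. mir-27b, which lies in the same cluster, had 1 and 2 reads and did not pass, at 0.26 and 0.69 RPKM. let-7c likewise lay 667 bp from mir-99a, which had 5 and 2 reads, or 1.57 and 0.82 RPKM.

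**Figure D3:**
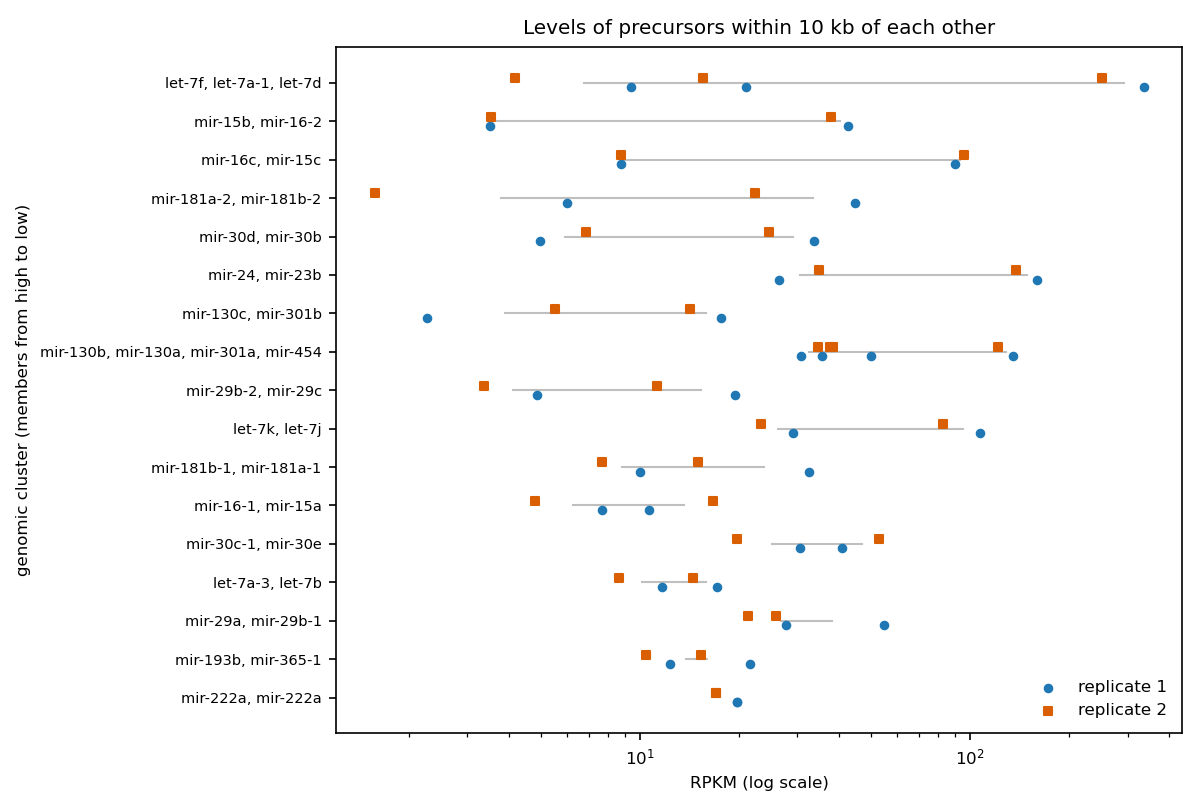
RPKM (log scale) of precursor-sized members in the 17 genomic clusters that hold at least 2 of them, ordered by the ratio of the highest to the lowest mean. Circles are replicate 1, squares are replicate 2, and grey lines span the member means. The let-7f cluster is the widest at 43.3 times, and the mir-222a rows coincide.

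Of the 88 precursors, 40 lay inside another gene model on the same strand, in 35 different models. Of these models 31 were detected, beside 52.6% of all gene models analysed. Precursors were above the model around them in both samples in 16 cases and below it in 23, and mir-30c-1, in the transcription factor gene NFYC, was below in replicate 1 and above in replicate 2. Across the 40, Pearson's r of the log2 RPKM of precursor and surrounding gene was -0.18 and -0.08, and Spearman's rho was -0.23 and -0.17. These are a description, since 5 of the models hold more than 1 precursor and all values share the same libraries. The long mir-24 and mir-1306 models, themselves members, are among the surrounding models. The precursors were also kept by their own RPKM, so undetected ones inside gene models are absent. The RPKM of a surrounding model is per its listed length, which can be shorter than its span. Whether each precursor lies in the counted part was not determined, so above and below may set unlike measures side by side. How precursor and host levels relate can therefore not be read from these values. The median of the mean RPKM was 8.63 for precursors inside a model and 14.8 for the 48 that were not. This split holds for the deposited models only. RefSeq places 76 of the 87 precursors matched by name within another gene, among them mir-155, mir-103-2 and mir-21, which are of the 48.

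Among those above the surrounding gene, let-7g stood 12.3 and 6.83 times above WDR82, which encodes a subunit of histone methyltransferase complexes and had 17.01 and 21.6 RPKM. mir-128-2 stood 54.3 and 64.0 times above ARPP21, a gene known from neurons, which was under the detection level at 0.19 and 0.13 RPKM. mir-140 stood 9.86 and 4.28 times above WWP2, a ubiquitin ligase gene, at 3.07 and 4.33 RPKM. mir-126 stood 1.79 and 1.66 times above EGFL7, an endothelial secreted factor gene, at 15.76 and 16.76 RPKM. mir-15b stood 3.85 and 2.63 times above the condensin gene SMC4, whereas mir-16-2 in the same gene was below it. The gap in level was thus of opposite sign for these neighbours within the same gene.

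Among those below the surrounding gene, 7 were so by 10 times or more in both samples. mir-1661, with 3 reads in each sample, lay in the vimentin gene VIM, which stood 153 and 125 times above it at 192.48 and 204.85 RPKM. mir-7-1 had 3.5 and 1.22 RPKM in HNRNPK, an RNA-binding protein gene, at 111.31 and 108.99. mir-33, which acts with its host in cholesterol metabolism, had 2.1 and 2.13 RPKM in SREBF2 at 48.24 and 66.99. At these depths a handful of reads on the precursor cannot be told apart from reads of the host transcript. Of the 16 precursors inside a model that have numbers of 1000 or more, 13 were below it and 3 above. Of the 24 with lower numbers, 10 were below and 13 above.

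**Figure D4:**
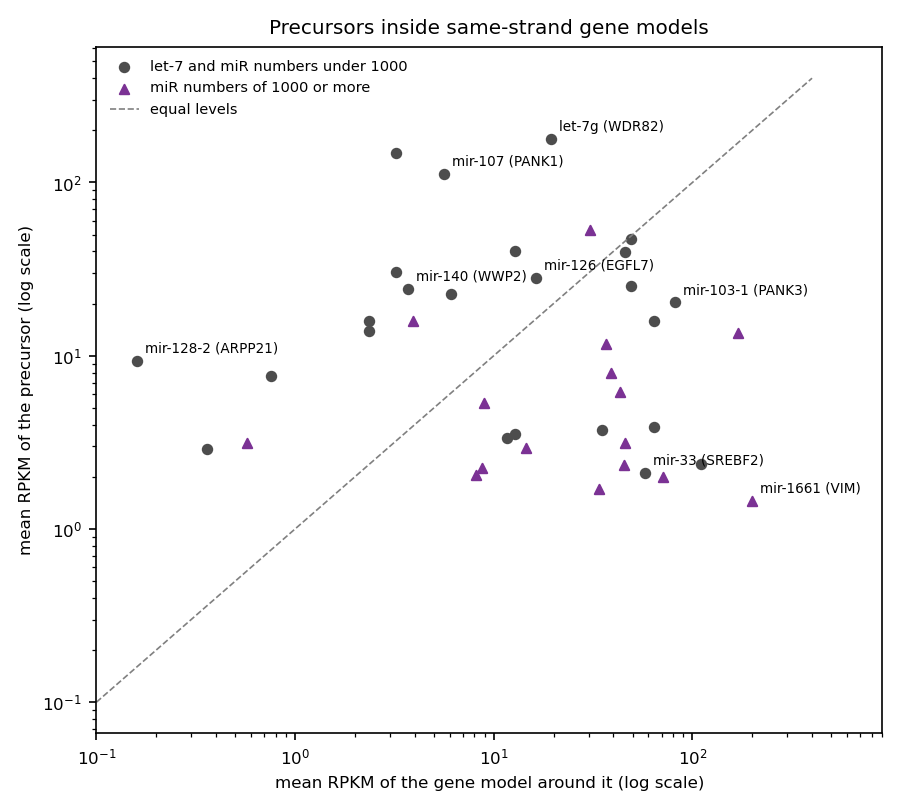
Mean RPKM of the 40 precursors against mean RPKM of the same-strand gene model around each, both on log scales; the dashed line marks equal levels. Circles are microRNAs numbered under 1000 or let-7, triangles those of 1000 or more, of which 13 of 16 lie below the line in both samples.

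MicroRNAs known from blood cells were detected at 25 of 37 measured loci, or 67.6%. The share was 20.9% for all microRNA models under 200 bp. All 37 have numbers under 1000, and of the models with such numbers or a let-7 name 45.8% were detected. The list was chosen with earlier results of these data known, so its share is a description and no test. Most of the 25 detected were the mir-155, mir-21, mir-24, miR-15/miR-16, miR-30, miR-181, miR-146, mir-126, mir-142 and mir-222a loci above. The erythroid pair was not detected: mir-451, whose maturation needs AGO2 rather than DICER1, had 2 and 0 reads, and mir-144, 86 bp away on chromosome 19, had 0 in both. Both are known to be transcribed under GATA1 as red cells mature. A count of 0 allows up to 3 reads, which is 0.899 and 1.17 RPKM for mir-144. mir-125b (3 and 2 reads), mir-32 (2 and 0 reads) and mir-100 (0 and 1 reads) were also below the detection level, and mir-10b had 0 reads. mir-223, mir-221, mir-150 and mir-10a, also on the list, were not found by name among the models under 200 bp.

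MicroRNAs of other tissues were detected at 6 of 34 measured loci, or 17.6%, near the 20.9% of all microRNA models under 200 bp and below the 45.8% of those with low numbers. They had 0 reads in both samples at 21 of the 34 loci, beside 206 of all 440 microRNA models. The muscle, liver, early embryo and epithelial loci, 20 in all, held 4 and 1 reads together, and none was detected. The detected 6 were all of the neural list, which had 14 measured loci. Its share, 42.9%, was near the 45.8% of models with low numbers, so the lower pooled share came from the other lists. Like the blood list, these lists were chosen with earlier results of these data known. mir-128-2 had 10.32 and 8.32 RPKM, mir-138-1 had 7.69 and 9.35, mir-7-3 had 4.55 and 7.7, mir-138-2 had 4.91 and 1.6, mir-128-1 had 3.42 and 3.25, and mir-7-1 had 3.5 and 1.22. None had a mean above 9.32 RPKM, which is below the median of the precursor-sized members. The neuronal mir-124b, mir-137, mir-9-1 and mir-9-2 had 0 reads in both samples, and mir-124a-2 had 1 and 0.

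The 16 long models held 78.1% ± 3.86 (SD, n = 2) of all member reads, or 41966 and 36396 reads, although they carry microRNA names. RefSeq lists 15 of these microRNAs, with lengths of 68 to 166 bp, and places 14 within another gene. The largest by reads, mir-3527 (ENSGALG00000018370), is a 683 bp model of the mitochondrial genome from 8331 to 9014, with 20794 and 18331 reads, or 766.66 and 882.71 RPKM. It comes after COX1, a subunit of cytochrome oxidase that had 734.71 and 859.17 RPKM, and before MT-ATP8, the place where the RefSeq order has COX2. It alone held 39.0% ± 2.38 (SD, n = 2) of the member reads. mir-3526, a model of 797 bp listed length on chromosome 3, had 139.72 and 119.3 RPKM, and RefSeq places this microRNA within CST3, the cystatin C gene. mir-6578 had 37.54 and 36.84 RPKM, within HADHB, a gene of mitochondrial fatty acid oxidation.

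Among the members, 2 microRNAs had a long model around their own precursor-sized model on the same strand. The long mir-1306 model runs from 1296812 to 1307379 on chromosome 15 with a listed length of 2561 bp. It had 28.68 and 32.14 RPKM, and the 68 bp precursor inside it had 48.88 and 57.07, or 1.70 and 1.78 times more. RefSeq places mir-1306 within DGCR8, the partner of DROSHA. The long mir-24 model runs from 40977919 to 41158296 on the Z chromosome with a listed length of 4761 bp. It had 3.3 and 3.13 RPKM over that length, 48.3 and 43.9 times less than the mir-24 precursor inside it. mir-762, by contrast, had a long model, of 1004 bp listed length, at 18.56 and 17.89 RPKM while its 78 bp model on the other strand held 0 reads. The remaining long models ranged from 22.34 RPKM (mir-3523, which RefSeq places in the phosphatase gene DUSP1, in replicate 2) down to 1.29 (mir-6686 in replicate 1). For these 16, the level is that of a longer RNA and was not read as that of a microRNA.

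The samples ordered the 88 precursors much alike, with Pearson's r of 0.94 on log2 RPKM and Spearman's rho of 0.93 across precursors, which share their libraries. A difference of 2-fold or more was seen in 15 of the 88, or 17.0%. The share was 10.3% of the 542 detected models under 200 bp, the 88 included, and 1.29% of all detected models. Of the 15, 10 were higher in replicate 1, or 11.4% of the 88, against 7.20% of the short models. The other 5 were higher in replicate 2, or 5.68%, against 3.14%. Among the 64 precursors with 10 or more reads in both samples, 7 did so, or 10.9%, beside 7.56% of such short models. With 1 sample on each side, these ratios have no replicate check.

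The precursor that differed most at this depth was mir-29a, 2.58 times higher in replicate 1 (exact binomial 95% interval 1.91 to 3.53 from its reads). mir-1804, inside the RNA-binding protein gene HNRPDL, was 2.27 times higher in replicate 2 (1.39 to 3.80), with 8.29 and 18.85 RPKM. let-7d followed with 2.24 times (1.17 to 4.58) and mir-181b-1 with 2.18 times (1.51 to 3.21), both higher in replicate 1. With mir-21 these were the 5 of largest ratio, and mir-193b at 2.06 (1.30 to 3.37) and mir-181a-2 at 2.01 (1.49 to 2.74) were the others past 2-fold. By contrast mir-155 and mir-103-2 differed by 1.17 and 1.18 times.

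**Figure D5:**
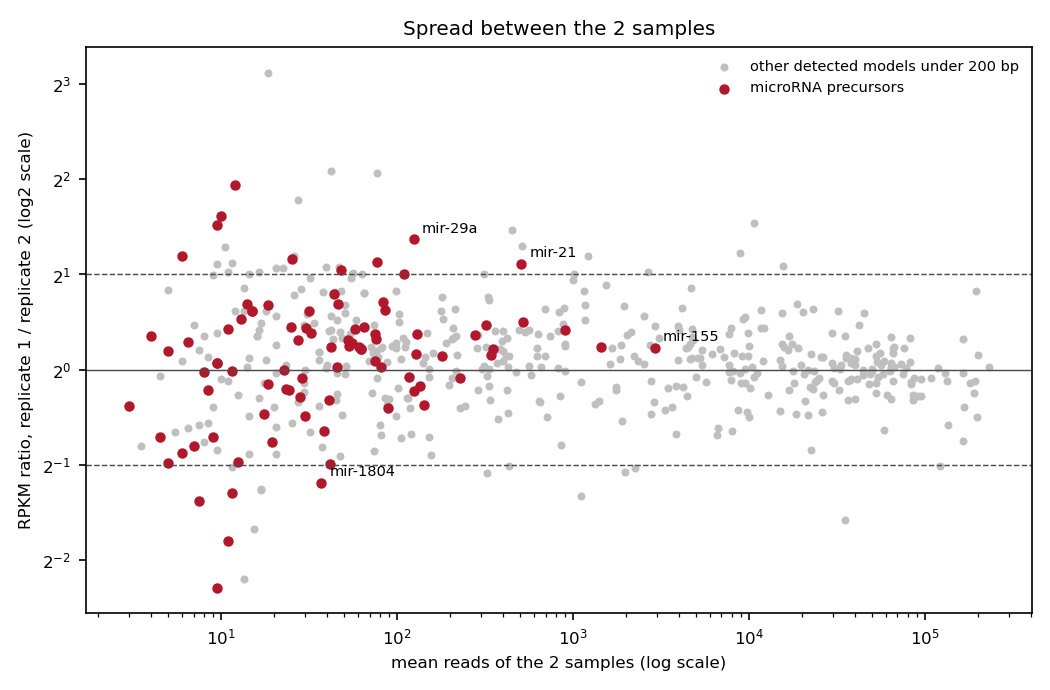
RPKM ratio of replicate 1 to replicate 2 (log2 scale) against mean reads (log scale) for the 542 detected models under 200 bp; red points are the 88 microRNA precursors, grey points the others. Dashed lines mark 2-fold either way, and 15 precursors lie on or beyond them, most at low read numbers.

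At the detection level, the nearest members inside were mir-1715 with 4 and 15 reads at 1 and 4.88 RPKM, mir-146a at 1.03 and 1.68, and mir-1719 at 1.14 and 2.24. The nearest outside were mir-1765 at 0.97 and 1.58, mir-1729 at 3.96 and 0.94, and mir-1452 at 1.64 and 0.85. A few reads separate these from each other, so membership near the limit is uncertain. Outside the members, 12 microRNA models reached 1 RPKM only in replicate 1 and 17 only in replicate 2, and 206 had 0 reads in both.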

How the data were processed

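Total RNA from 2 samples of 6C2 cells was depleted of ribosomal RNA, fragmented with RNase III and sequenced as SOLiD libraries, per the labels' protocols. The authors deposited raw read counts and RPKM values per gene model, per the file headers. The sources used here do not name the aligner, counting tool, build or annotation. Each sample's table has 1 column of counts and 1 of RPKM, and 0 columns came from outside the series. Models with no symbol and 0 reads in both samples were left out, which left 16464.

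From these values, means and SDs of 2 samples, shares of reads, ratios, clusters (starts linked within 10 kb on a chromosome) and overlaps with same-strand models were computed in Python 3.11.15 with pandas 2.3.3, numpy 2.4.6 and scipy 1.17.1, and drawn with matplotlib 3.10.9. The scripts were tested on simulated data. No test between groups was possible with 1 group. Exact binomial 95% intervals and the limit of 3 reads for a count of 0 cover counting error only. Whether the samples were separate cultures is not given, so their spread may be technical. RefSeq (GRCg7b) served only for names and neighbours.

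Named were the 15 members of highest mean RPKM, all let-7, miR-103/miR-107 and miR-155 members, those in clusters, the 5 of largest ratio between samples with at least 10 reads in each, the 3 on each side of the detection level, and those on the blood, other-tissue and pathway lists. mir-140, mir-26a, mir-33, mir-1661 and the long models were chosen once their values were known, like the erythroid, lymphoid and monocytic markers. The members and lists were chosen with earlier results of these data known.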

Additional observations from a re-analysis of the deposited data

How the results depend on the processing

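The number of members was 104 at an RPKM of 1 and 50 at an RPKM of 10 in both samples. It was 147 at an RPKM of 0.1 and 80 with at least 10 reads in each sample, and by a single sample it was 116 to 121. The 5 members of most reads held 65.2% of member reads, 63.9% to 66.6% in a single sample. The 5 of highest RPKM, which are other members in part, held 59.9% of the summed RPKM, and among models under 200 bp, an alternative chosen after seeing the data, the 5 with most reads held 56.1%. The number of clusters was 17 or 18 whether members were linked within 3, 10 or 50 kb, and the number of members inside another model was 40, or 51 with models widened by 1 kb. Members that differed 2-fold or more numbered 15, 11 with a pseudocount of 1 RPKM and 7 with at least 10 reads in each sample. Scaling the samples to equal median also gave 15. With the limit of 10 reads, the share of precursors past 2-fold fell as well, from 17.0% of 88 to 10.9% of 64. No paired analysis was possible because there is 1 group. Depth limits the lower ranks, where 24 precursors had under 10 reads in a sample.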
